A study of Mus musculus with 6 samples.

Results

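The 10 genes described here encode the synaptonemal complex and the meiotic recombination machinery of mouse oocytes. They were chosen by symbol (*Sycp1*, *Sycp2*, *Sycp3*, *Syce1*, *Syce2*, *Hormad1*, *Dmc1*, *Msh4*, *Msh5* and *Mlh3*), and all 10 were found among the 15707 genes of the deposited table. The study compared oocytes depleted of *Btg4*, an adaptor of the CCR4–NOT deadenylase, with control oocytes by RNA sequencing at early metaphase II, before the release from arrest. Each group had 3 libraries of 50 oocytes. Both groups were follicle-enclosed oocytes of (C57BL x CBA) F1 females, which were 10 to 12 days old when ovaries were dissected from several animals together. The follicles were cultured for 8 to 10 days in medium with serum and follicle-stimulating hormone, and the oocytes were then matured in vitro to metaphase II. The *Btg4*-depleted group had been injected with siRNAs against *Btg4*, short RNA duplexes through which the oocyte's own machinery cuts the mRNA they pair with. The control group had been injected with control siRNA, so both groups carried an injection, and the depletion was a knockdown in wild-type oocytes and not a deletion of the gene.

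The synaptonemal complex is a protein ladder that holds homologous chromosomes together in meiotic prophase. SYCP2 and SYCP3 build its lateral elements along the chromosome axes, SYCP1 spans the gap as transverse filaments, and SYCE1 and SYCE2 belong to the central element. Within this structure DMC1 carries out strand exchange, and the MSH4–MSH5 pair and MLH3 act in maturing a subset of the joints into crossovers. In mouse oocytes these events take place in the fetal ovary and the complex is taken apart around birth. A metaphase II oocyte is long past these events. When mRNA found there was made, and whether it is translated, was not tested here.

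The deposited table holds the authors' mean FPKM of each group (sequenced fragments relative to transcript length and to the size of the library) and no values of single libraries. The spread between oocyte samples was therefore not known for any gene, no test between the groups could be run, and the differences below are described without a p-value. The 10 transcripts differed widely in level. *Syce2* and *Sycp3* were among the abundant mRNAs of the oocyte, *Sycp2*, *Msh4* and *Sycp1* were at intermediate levels, and *Msh5*, *Syce1*, *Mlh3*, *Dmc1* and *Hormad1* were near or below 1 FPKM in both groups. In the control group *Syce2* was at 216 FPKM, above 98.1% of listed genes, and *Sycp3* at 131 FPKM, at percentile 96.5. *Hormad1*, the lowest of the 10, was at 0.277 FPKM and percentile 23.7. The order of levels in the control group was *Syce2*, *Sycp3*, *Sycp2*, *Msh4*, *Sycp1*, *Syce1*, *Msh5*, *Mlh3*, *Dmc1* and *Hormad1*. With no spread between libraries, neighbours in this order such as *Syce1* (1.13 FPKM) and *Msh5* (1.06 FPKM) cannot be ranked.

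**Figure D1:**
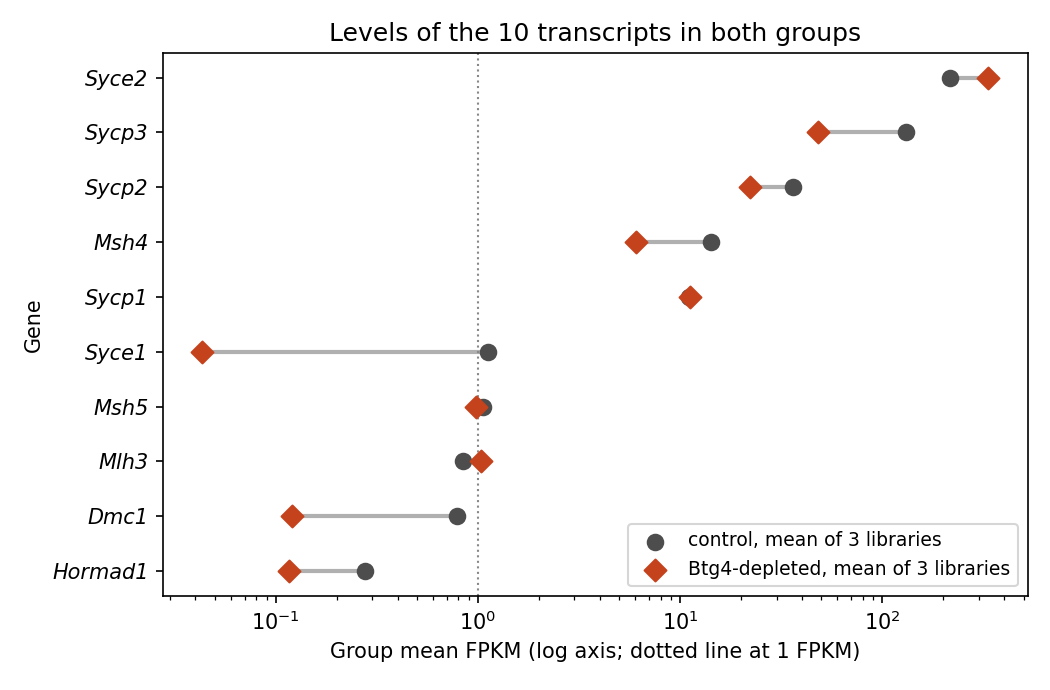
Group mean FPKM (log axis) of the 10 transcripts in control oocytes (circles) and *Btg4*-depleted oocytes (diamonds), each the authors' mean of 3 libraries with no error available. *Syce2* went from 216 to 334 FPKM and *Sycp3* from 131 to 48.1 FPKM, while *Syce1*, *Dmc1* and *Hormad1* were close to or under 1 FPKM in control and at 0.12 FPKM or less in *Btg4*-depleted oocytes.

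The depth of single libraries was not used here. An estimate was made from the authors' mean normalized counts of 320 other genes, which, divided by their FPKM and length, put a library at 7.82 M fragments, with 6.92 and 8.12 M as the 5th and 95th percentiles of these genes. A control library would then hold about 1158 fragments of *Sycp3* and 1737 of *Syce2*, but only 12.9 of *Syce1*, 12.6 of *Dmc1* and 3.68 of *Hormad1*. Intervals given below are 95% exact binomial intervals on these estimated fragments, summed over the 3 libraries of a group. They cover counting error only and leave out the error between oocyte samples and of cDNA amplification.

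The target of the siRNAs, *Btg4*, was at 1766 FPKM in the control group and at 39.3 FPKM in the *Btg4*-depleted group. Of the markers of the labelled cell type, 11 of 11 oocyte genes were listed, with a summed level of 9882 FPKM in control and 11322 FPKM in *Btg4*-depleted oocytes. Of 11 markers of granulosa and cumulus cells, the somatic cells around the oocyte, 6 were listed, with summed levels of 30.6 and 28.1 FPKM. Of the 4 measured ones, *Cyp19a1* (aromatase) was at 14.8 and 5.87 FPKM and *Kitl* at 2.77 and 0.907 FPKM in control and *Btg4*-depleted oocytes. The inhibin genes *Inha* and *Inhba* were at 8.20 and 12.0 FPKM and at 4.28 and 9.24 FPKM. *Amh*, *Fshr* and *Foxl2* were among the markers that were looked up and not listed. Of 5 theca and stroma markers 3 were listed, at 0.157 FPKM or less in control and at the lowest value of the table, 0.01 FPKM, in *Btg4*-depleted oocytes, and of 3 blood markers only *Cd68* was listed, at 1.00 and 0.527 FPKM. The part of these cells in the results was not tested, and in pooled oocytes fewer cells of a type and less RNA per cell cannot be told apart. The cDNA was primed on poly(A) tails, so a lower level can mean less RNA or a shorter tail. FPKM is also relative to the size of the library, so it can fall when other transcripts with tails increase. These cannot be told apart in these values.

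Before comparing the groups, TMM scaling, which averages the log2 ratios of genes after trimming extremes, was applied to the means. It raised every log2 ratio of *Btg4*-depleted over control by 0.16. Ratios are of FPKM + 1, which makes those of low genes smaller. Without scaling the median log2 ratio of all genes was -0.15, and with it -0.02, so that a difference is relative to the middle transcript. Genes with a mean over both groups of at least 1 FPKM are called measured. This left 10012 genes and 6 of the 10 described here, *Sycp1*, *Sycp2*, *Sycp3*, *Syce2*, *Msh4* and *Msh5*. *Msh5* passed narrowly with a mean of 1.02 FPKM, and *Mlh3* was just under with 0.942 FPKM.

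Of the 6 measured transcripts, 1 was at least 2-fold lower in *Btg4*-depleted oocytes (*Sycp3*), 0 were at least 2-fold higher, and 5 lay between. Among all measured genes 11.7% were at least 2-fold lower and 19.8% at least 2-fold higher. A share of 1 in 6 is near the background. The median log2 ratio of the 6 was -0.25, against -0.02 over all measured genes, and 3 lay on each side of zero. The log2 ratios of the 6 ranged from -1.26 for *Sycp3* to 0.79 for *Syce2*.

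**Figure D2:**
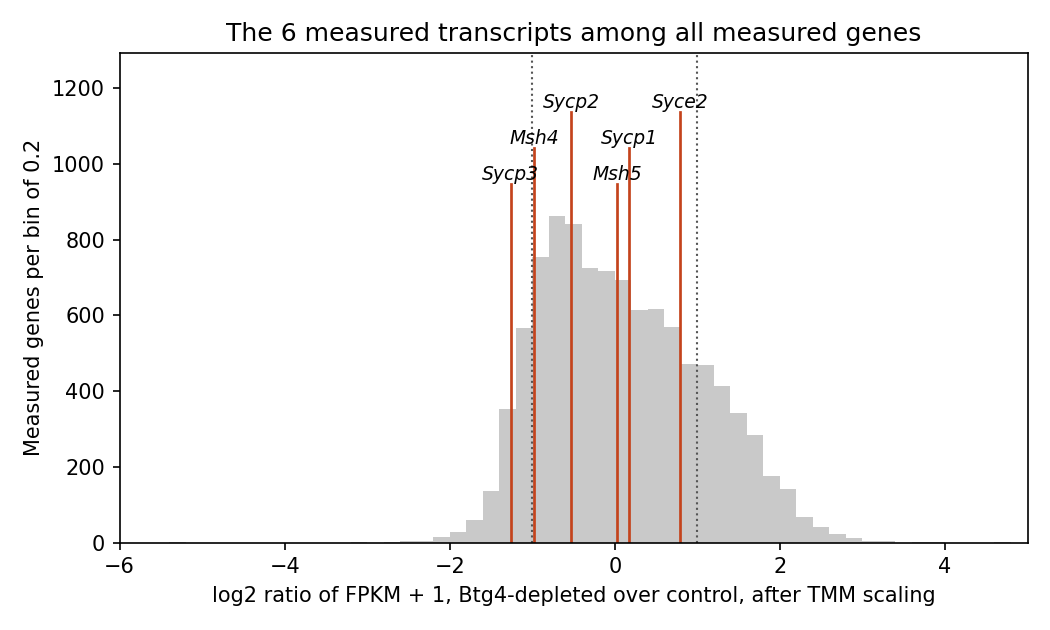
Number of measured genes (of 10012) per bin of 0.2 of the scaled log2 ratio (FPKM + 1) of *Btg4*-depleted to control oocytes, with the 6 measured members as vertical lines and 2-fold marked by dotted lines. *Sycp3* at -1.26 lies left of the 2-fold line, *Msh4* at -0.98 just inside it, and *Syce2* at 0.79 is the highest of the 6.

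The lateral element transcripts were lower in *Btg4*-depleted oocytes. *Sycp3*, whose protein forms fibres along the chromosome axes, was at 131 FPKM in control and 48.1 FPKM after depletion. Its log2 ratio was -1.26. Without the pseudocount the scaled level was 2.42-fold lower, and the counting interval of the log2 ratio was -1.37 to -1.18. Of all measured genes 4.62% had a ratio this low or lower. *Sycp3* stayed at least 2-fold lower under each of the 8 other settings tried, with log2 ratios from -1.80 to -1.14. *Sycp2*, which binds SYCP3 in the lateral element, was at 36.2 and 22.1 FPKM, a log2 ratio of -0.53 (counting interval -0.61 to -0.48), and was not past 2-fold under any setting. Within the lateral element the *Sycp3* to *Sycp2* ratio of FPKM went from 3.61 in control to 2.17 in *Btg4*-depleted oocytes. On GRCm38 the exons of *Sycp3* overlap those of *Chpt1* on the opposite strand by 535 bases, and whether the counting used strand is not given in the sources used here. *Chpt1*, an enzyme of phosphatidylcholine synthesis, was at 1.24 and 0.343 FPKM, far below *Sycp3*.

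*Sycp1*, the transverse filament gene, was at 11.1 FPKM in control and 11.25 FPKM in *Btg4*-depleted oocytes. Its log2 ratio was 0.17 after scaling and 0.02 without, and it was between 0.02 and 0.29 under all 9 settings including the main one. Its pseudogene *Sycp1-ps1*, which could share reads with it, was listed at 0.08 and 0.0367 FPKM. The *Sycp1* to *Msh4* ratio of group means was 0.775 in control and 1.86 after depletion, and without a spread the order of these neighbours cannot be given for either group.

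The transcripts of the central element lay on opposite sides of zero. *Syce2*, which assembles with TEX12 into long fibres in the middle of the complex, was at 216 FPKM in control and 334 FPKM after depletion. Its log2 ratio was 0.79 (counting interval 0.74 to 0.84). Of all measured genes, 75.3% had a ratio this high or lower, and *Syce2* was not past 2-fold. *Syce1*, which binds SYCP1 in the central element, was at 1.13 FPKM in control and 0.0433 FPKM in *Btg4*-depleted oocytes. The 3 *Btg4*-depleted libraries together held 0.13 FPKM of it, where 1 fragment in a library is worth about 0.0874 FPKM and the lowest value in the table is 0.01 FPKM. This amounts to about 1 fragment in the *Btg4*-depleted group against about 39 in control, a scaled ratio of 0.0431 with a counting interval of 0.000709 to 0.17. With the pseudocount its log2 ratio was -1.02. *Syce1* was under the filter, and its lower level rests on few fragments in control and nearly none after depletion.

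The make-up of the structural transcripts differed between the groups. Summed over *Sycp1*, *Sycp2*, *Sycp3*, *Syce1* and *Syce2*, the level was 395 FPKM in control and 416 FPKM in *Btg4*-depleted oocytes. *Syce2* accounted for 54.7% of this sum in control and 80.4% in *Btg4*-depleted oocytes, while *Sycp3* went from 33.1% to 11.6% and *Sycp2* from 9.15% to 5.32%. The share of *Sycp1* was 2.80% and 2.70%. A ratio between genes of the same group does not depend on the scaling between groups. The *Syce2* to *Sycp3* ratio was 1.65 in control and 6.95 after depletion, a change of 2.07 on the log2 scale. These genes had the highest and the lowest log2 ratio of the measured members, so this pair shows the largest change among them.

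**Figure D3:**
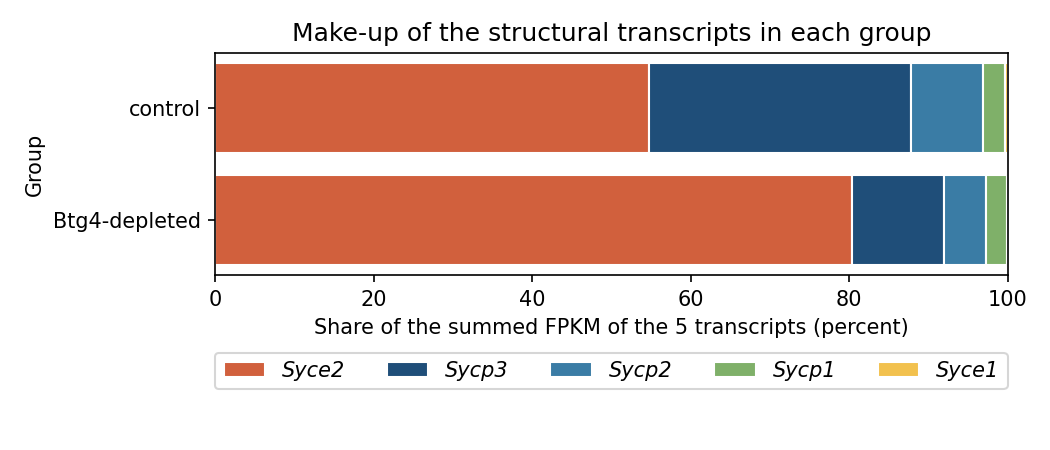
Share (percent) of *Syce2*, *Sycp3*, *Sycp2*, *Sycp1* and *Syce1* in the summed group mean FPKM of these 5 transcripts, in control (395 FPKM in all) and *Btg4*-depleted oocytes (416 FPKM in all). The *Syce2* share grew from 54.7% to 80.4% and the *Sycp3* share shrank from 33.1% to 11.6%.

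*Hormad1*, an axis protein that marks chromosomes without synapsis and is removed when they synapse, was at 0.277 FPKM in control and 0.117 FPKM in *Btg4*-depleted oocytes. These values stand for about 11 and 5 fragments over 3 libraries. The counting interval of the log2 ratio without pseudocount, -2.85 to 0.67, spans zero, so a difference was not detectable at this depth.

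Among the recombination genes, *Dmc1* was low and *Msh4* at an intermediate level. *Dmc1*, the meiosis-specific recombinase, was at 0.783 FPKM in control and 0.12 FPKM in *Btg4*-depleted oocytes, about 38 and 6 fragments over 3 libraries. Its scaled ratio without pseudocount was 0.172, with a counting interval of 0.0611 to 0.422.

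*Msh4* and *Msh5*, whose proteins form a clamp on recombination joints as a pair, had unequal transcript levels. *Msh4* was at 14.3 FPKM in control and 6.03 FPKM after depletion. Its log2 ratio was -0.98, with a counting interval without pseudocount of -1.24 to -0.92. Its position on either side of 2-fold depended on the setting, with values from -1.12 to -0.86 and 4 of 9 settings past 2-fold, and it was below zero in all 9. *Msh5* was at 1.06 and 0.98 FPKM, a log2 ratio of 0.02, and its counting interval, -0.47 to 0.57, spans zero. The *Msh4* to *Msh5* ratio was 13.4 in control and 6.16 after depletion. *Mlh3*, an endonuclease subunit in crossover formation, was at 0.843 and 1.04 FPKM, about 109 and 134 fragments over 3 libraries (counting interval of the log2 ratio without pseudocount 0.09 to 0.84). It was under the filter, with a log2 ratio of 0.23 after scaling and 0.15 without. The interval includes the scaling of 0.16, which is larger than its lower end, so its place above zero depends on the scaling.

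Transcript length moved with these ratios over the whole table. When the measured genes were divided into 10 classes of equal size by length, the median log2 ratio went from 0.64 in the shortest class to -0.59 in the longest. *Syce2* (1026 bases) lay near the median of its class, 0.64, and *Sycp2* (5688 bases) near that of its own, -0.43. *Sycp3* (1132 bases) lay far from it. The median of its class was 0.51 and the lower quartile -0.28, both above the -1.26 of *Sycp3*. *Msh4* (3333 bases) was also under the lower quartile of its class, -0.73. With the length trend removed, the log2 ratio was -1.80 for *Sycp3*, -0.93 for *Msh4*, -0.16 for *Sycp2* and 0.22 for *Syce2*. The part of length in the ratios was not tested further.

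**Figure D4:**
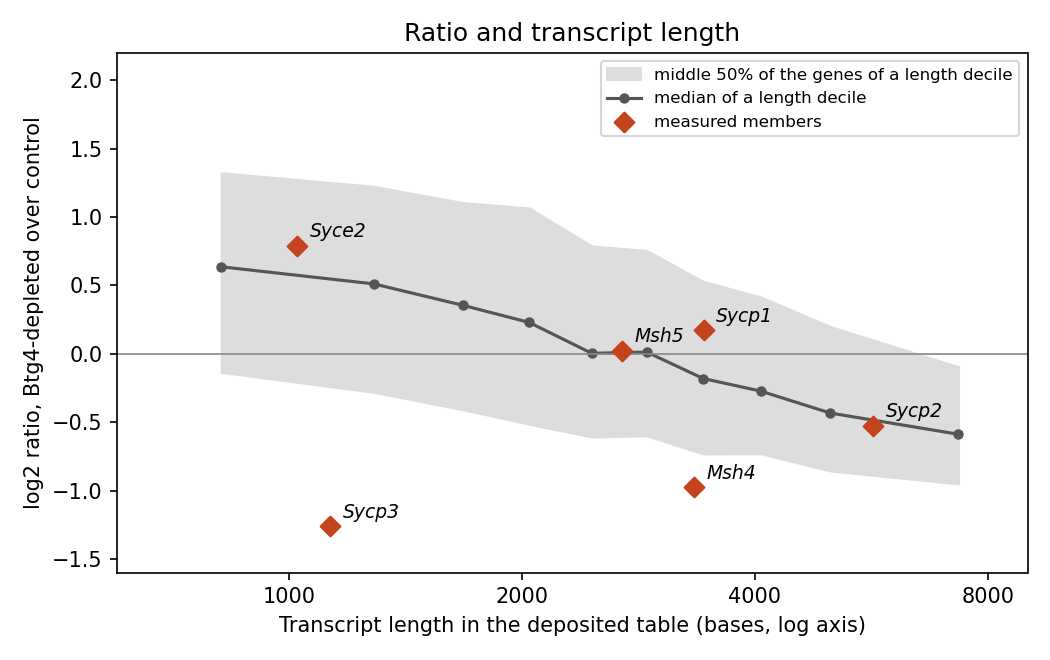
Scaled log2 ratio (FPKM + 1) of *Btg4*-depleted to control oocytes against transcript length in bases (log axis). The line and band give the median and the middle 50% of genes in each of 10 length classes of the 10012 measured genes, and diamonds are the 6 measured members. *Sycp3* (-1.26) and *Msh4* (-0.98) lie under the band.

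Poly(A) tails in oocytes are set through elements of the 3′ UTR. The cytoplasmic polyadenylation element (CPE), read by CPEB, can act near the poly(A) signal, and in mice lacking CPEB the *Sycp1* and *Sycp3* mRNAs, which carry CPEs, are not translated in fetal oocytes. The annotated 3′ UTR of the coding transcript closest in length to the deposited one was therefore searched on the sense strand for TTTTAT or TTTTAAT (GENCODE M21, GRCm38), and all 10 genes had such a transcript. A CPE stood in the last 150 bases for 3 of the 9 genes with a 3′ UTR that long, *Sycp3*, *Sycp1* and *Dmc1*, against 26.4% of measured genes. Counted over the whole 3′ UTR, 7 of the 10 held one, against 58.8%. The counts of the 10 include the 4 genes under the filter, while the shares are of measured genes only. A longer 3′ UTR has more room for a match. Those of the 10 had 136 to 1102 bases, and the median of measured genes was 888 bases. For 6 of these 7 genes the match nearest the annotated 3′ end is shown with the CPE letters in capitals, to allow flanks and positions to be compared. Binding of CPEB at them was not measured here.
*Sycp3*, chr10:88473173-88473202, plus strand: tttgtttgtttgTTTTAATagttgttctct
*Sycp1*, chr3:102818629-102818658, minus strand: tttcatctgaatTTTTATtgtattcagata
*Dmc1*, chr15:79561704-79561733, minus strand: aagttgttgtttTTTTAATtttagagctaa
*Msh4*, chr3:153857376-153857405, minus strand: ctcagctttatgTTTTAATtaaaaattata
*Sycp2*, chr2:178345439-178345468, minus strand: agagattttacaTTTTATtagcccttagat
*Syce2*, chr8:84887240-84887269, plus strand: gctgatattgttTTTTATagttctgtaacc

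The placement of these letters differed between the genes. In *Sycp3*, with a 3′ UTR of 277 bases and 9 exons, the CPE began 31 bases before the poly(A) signal, which is shown in capitals in the stretch that follows.
*Sycp3*, chr10:88473204-88473233, plus strand: cacgattgtgtcAATAAAgatgatttaaat
In *Sycp1* the CPE began 148 bases from the annotated end and 129 bases before the last poly(A) signal, and in *Dmc1* 2 CPEs began 148 and 111 bases from the end. In *Sycp2* the nearest of 5 CPEs began 164 bases from the end, in *Syce2* the only one 195 bases and in *Msh4* 245 bases from the end, where it overlaps an ATTAAA. *Mlh3* held 1, which began 209 bases from the end. The last poly(A) signal began 37 bases from the end in *Sycp2* and 69 bases in *Syce2*. Measured from that signal, the CPEs of *Sycp2* and *Syce2* were no farther away than that of *Sycp1*, and those of *Msh4* and *Mlh3* were farther. The window of 150 bases is counted from the annotated end. *Sycp2* alone of the 10 also held a Pumilio element (TGTANATA), present in the 3′ UTR of 23.7% of measured genes. *Syce1*, *Hormad1* and *Msh5* held no CPE in the searched 3′ UTR. *Sycp3* and *Sycp1*, which share a CPE in the last 150 bases, had log2 ratios of -1.26 and 0.17. A match is a description of the annotated transcript, and the 3′ end used in these oocytes was not measured here.

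The wider machinery of meiotic recombination was also mixed in direction. Of 48 listed by role, 38 genes were found and 30 were measured, of which 4 were at least 2-fold higher and 3 at least 2-fold lower in *Btg4*-depleted oocytes, with a median log2 ratio of -0.21. These are 13.3% and 10% of the 30, against 19.8% and 11.7% of all measured genes. Without scaling the split was 3 higher and 6 lower, against 16.2% and 16.7% of all measured genes, and after quantile normalization 3 higher and 5 lower, against 17.2% and 14.8%. The higher genes included *Mus81*, a nuclease of an alternative crossover route, *Psmc3ip*, which with *Mnd1* forms the HOP2–MND1 cofactor of DMC1, and *Mre11a*, a nuclease that trims break ends. The 3 lower genes were *Rad51ap1*, a factor that stimulates strand exchange, *Ccdc36* (IHO1), needed to make the breaks, and *Helb*, a DNA helicase. The list gave each gene a broad role label, which does not mean that the gene carries out or promotes that step. *Helb*, for example, was counted under strand exchange. The 11 measured genes labelled crossover factors had a median log2 ratio of 0.08 with 2 higher and 0 lower. The 7 labelled strand exchange had -0.88 with 1 higher and 2 lower. The 4 genes labelled double-strand breaks had a median of -0.56 with 0 higher and 1 lower. The 3 labelled axis and central region had -0.26 with 0 in either direction, and the 5 labelled cohesin and break repair -0.33 with 1 higher and 0 lower. With 3 to 11 genes a label, these counts are read only beside the 19.8% higher and 11.7% lower of all measured genes.

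*Psmc3ip* was at 6.71 and 27.6 FPKM (log2 ratio 2.05), while *Mnd1*, named after its values were seen, was at 41.6 and 41.7 FPKM (0.16). *Mus81* was at 29.4 and 120.1 FPKM (2.16) and its partner *Eme1*, also named after its values were seen, at 12.8 and 10.5 FPKM (-0.11). In both pairs 1 partner was past 2-fold, which is why it was named, and the other was not. Pairs picked in this way say nothing about partners in general, and the difference between partners was not tested. *Tex12*, the partner of *Syce2* and likewise named after its values were seen, was at 17.9 and 7.60 FPKM (-0.99), against 0.79 for *Syce2*. *Rad51ap1* was the lowest of the wider list, at 15.6 and 4.22 FPKM (-1.53), followed by *Ccdc36* at 4.66 and 1.43 FPKM (-1.12). *Mre11a* (1.03) and *Helb* (-1.03) were close to 2-fold.

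**Figure D5:**
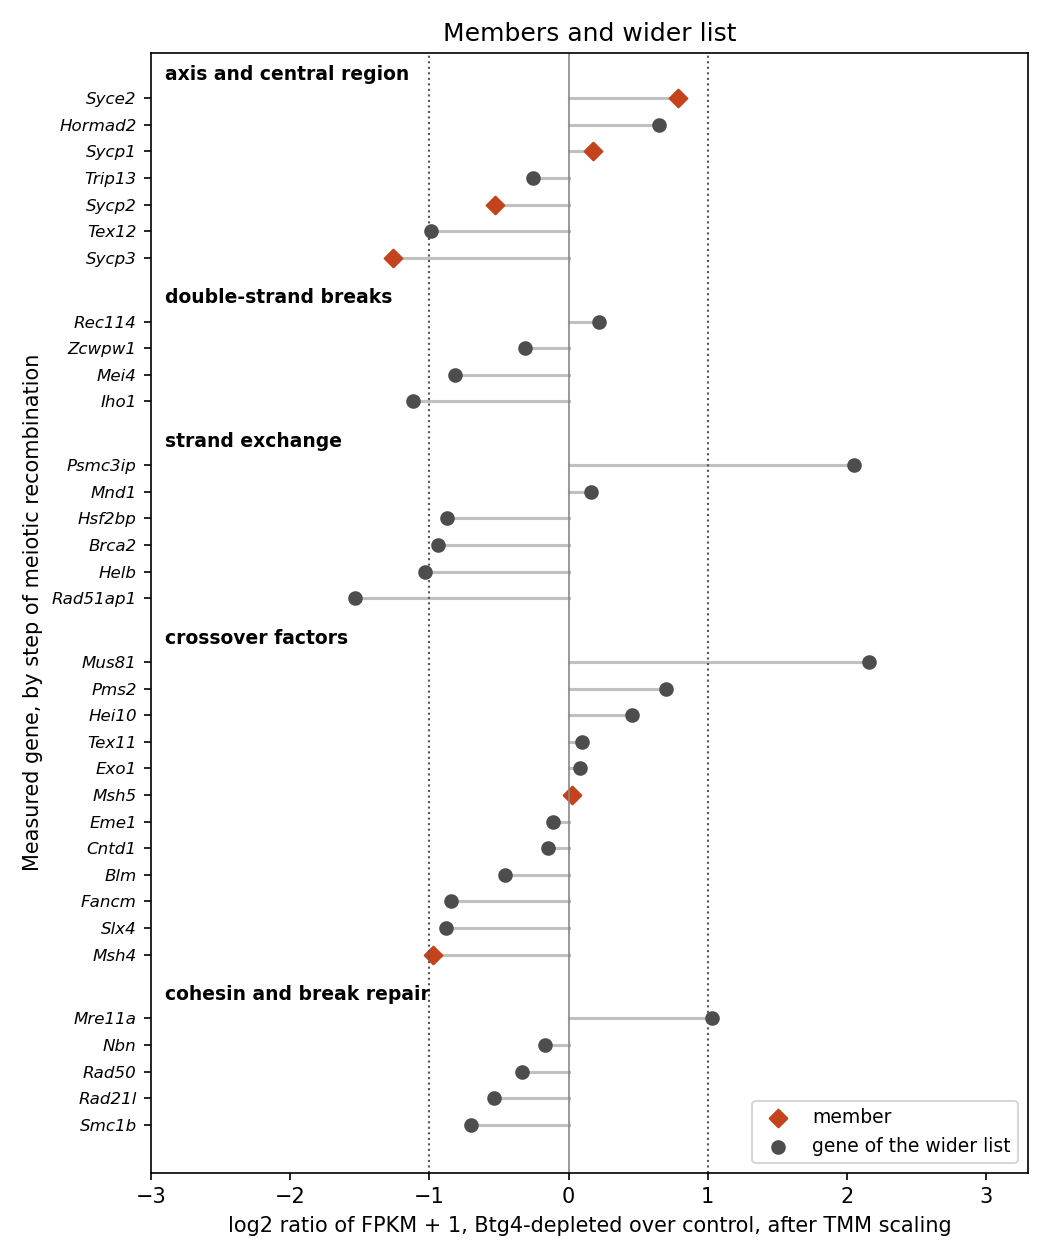
Scaled log2 ratio (FPKM + 1) of *Btg4*-depleted to control oocytes for the 6 measured members (diamonds) and 28 of the 30 measured genes of the wider list (circles). Genes are grouped by the role labels of the list, called steps on the axis, with 2-fold marked by dotted lines. *Ccdc36* is shown as Iho1 and *Ccnb1ip1* as Hei10. *Mus81* (2.16) and *Psmc3ip* (2.05) lie far to the right of their groups.

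Genes of a pair of related processes are given for orientation, without a test of the difference. Of 14 measured cohesin and separase genes, which hold and release sister chromatids, 3 were at least 2-fold lower and 0 higher. All 14 had log2 ratios below zero, with a median of -0.70, where 5067 of all 10012 measured genes lay below zero. These 14 genes were long, with a median of 4498.5 bases against 2684 for all measured genes. With the length trend removed their median log2 ratio was -0.55. Of 24 measured genes of homologous recombination and mismatch repair in general, 6 were at least 2-fold higher and 2 lower, with a median of 0.02. The background shares are again 19.8% higher and 11.7% lower. The median of the 6 measured members was -0.25, with single values on either side of -0.70 and of 0.02, and the sets share genes with the wider list.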

How the data were processed

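RNA-seq of polyadenylated RNA was compared between 3 libraries of *Btg4*-depleted and 3 of control oocytes, grouped by their labels. The authors deposited mean FPKM per group, made at the sequencing provider. BWA and the mm9 build are named in the submitters' processing notes. For the counting program, its strand setting and the annotation, the sources used here give nothing. All 31414 means were multiples of 1/300, to within 0.001 of that step, which 3 values rounded to 2 decimals would give. Lists of called genes hold the authors' mean normalized count over 6 libraries from DESeq2 (the deposited signal), used here only for the depth estimate. Their log2 ratios, fold changes, test scores, probabilities and p-values, and those in the table of all genes, are the authors' own comparisons and were not used.

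limma on FPKM of single libraries had been planned if these were given. With group means only, log2 ratios of FPKM + 1 were taken with TMM scaling (trims of 30% for ratios and 5% for levels) over genes with a mean of at least 1 FPKM, and counted past 2-fold. Alternatives were no scaling, median of ratios, quantile normalization, pseudocounts of 0.1 and 0.5, a filter of 5 FPKM or none, and a loess correction for length (span 30%). Counting intervals used rounded estimated fragments. The functions were tested on simulated group means. Named genes are the 10 members, *Btg4*, and genes of the wider list with a mean of at least 1 FPKM and past 2-fold; others are marked, and some items are not reported here. The members and lists were chosen with earlier results of these data known. Transcripts were matched by Entrez identifiers to GENCODE M21, which gave a coding transcript for 96.2% of measured genes; no coordinate was taken from the mm9 alignment. Computation used numpy 2.4.6, scipy 1.17.1, pandas 2.3.3, statsmodels 0.14.6 and matplotlib 3.10.9 under Python 3.11.15.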

Additional observations from a re-analysis of the deposited data

How the results depend on the processing

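The number of members at least 2-fold lower, 1 of 6 in the report, was 2 of 6 with no scaling, with quantile normalization and with pseudocounts of 0.1 and 0.5, where *Msh4* joined *Sycp3*, and 2 of 10 with no filter, where *Syce1* joined. It stayed at 1 with median of ratios, at a minimum of 5 FPKM and with the length trend removed, and 0 members were at least 2-fold higher under any of the 8 alternatives. The median log2 ratio of the members lay between -0.51 (minimum of 5 FPKM) and -0.11 (length trend removed). The wider list had 6 of 30 genes at least 2-fold lower with no scaling, and 5 of 30 with quantile normalization and with pseudocounts of 0.1 and 0.5. At a minimum of 5 FPKM it had 1 of 22, against 3 of 30 in the report. The all-gene share at least 2-fold lower was 16.7% with no scaling, 14.8% with quantile normalization and 16.1% and 14.2% with these pseudocounts. It was 10.6% at a minimum of 5 FPKM and 5.69% with no filter, against 11.7%. Over the 8 alternatives, 15.0% to 23.2% of all genes were at least 2-fold higher. Over all measured genes, 62.9% of those past 2-fold were higher, against 49.1% with no scaling, 53.8% with quantile normalization and 72.7% with no filter. The log2 ratio of *Msh5* was below zero in 3 of 9 settings. No paired analysis was possible because the deposited table holds group means and no values of single libraries, and for the same reason no replicate could be left out.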

Other observations

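Across the measured genes, 2293 with a CPE in the last 150 bases of the annotated 3′ UTR had a median log2 ratio of -0.42, and 6378 without one had a median of 0.04. These are medians over genes of 1 pair of group means, with no test, and base composition and transcript length may differ between the sets. *Sycp3* (-1.26), *Dmc1* (-0.65, under the filter) and *Sycp1* (0.17), the 3 members with such a CPE, lay on both sides of the first median.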
